A study of Homo sapiens with 6 samples.

Results

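The kinase genes of the mitogen-activated protein kinase (MAPK) cascade, from MAP4K to MAPK, were followed in NK-1R-overexpressing HK-2 cells given SP. The members were all genes whose official symbol is MAPK, MAP2K, MAP3K or MAP4K followed by a number. This rule uses no measured values, but the set was chosen with earlier results of these data known. The rule took 42 of the 16250 genes listed, which were 5 MAP4K, 17 MAP3K, 7 MAP2K and 13 MAPK genes. HK-2 cells are human kidney epithelial cells, of proximal tubule origin, that were immortalized for culture. Every library came from HK-2 cells that carried the SP receptor NK-1R (gene TACR1) on a lentiviral vector as a stable line, so the controls overexpressed the receptor as well. The control group received PBS and the SP group received 20 µM SP (substance P, the peptide ligand of NK-1R), each for 48 h before RNA was taken. There were 3 RNA-seq libraries in each group, called control 1 to 3 and SP 1 to 3 here. Nothing states that the 3 libraries of a group were separate cultures, so the p-values measure only the spread between these libraries.

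MAPK cascades pass a signal down a chain of kinases. MAP4K enzymes act near the cell membrane and switch on MAP3K enzymes, which phosphorylate MAP2K enzymes, which in turn phosphorylate a MAPK on both a threonine and a tyrosine of its activation loop. The ERK arm runs through MAP2K1 and MAP2K2 and is mostly tied to growth factors, the JNK arm runs through MAP2K4 and MAP2K7, and the p38 arm runs through MAP2K3 and MAP2K6. JNK and p38 kinases answer stress and inflammatory cytokines, and in tubule cells they have been studied in injury and fibrosis. The ERK5 arm pairs MAP2K5 with MAPK7. A transcript level says nothing of how much of a kinase is phosphorylated, and only transcript levels were measured here.

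Values are FPKM, in which fragments are divided by transcript length and library size, so levels can be set side by side between genes. Fold changes are differences of log2(FPKM + 1), SP minus control, a scale on which low genes change by less than their ratio of levels. A gene was called at a Benjamini-Hochberg adjusted p under 0.05 by limma over 12127 genes, those that reached 0.5 FPKM in 3 libraries or more. Of the kinase genes, 37 passed this filter and 5 did not. The sequencing depth is unknown, since the files give no counts. On a principal component that took 64.8% of the variance, SP 1 scored 12.7 and so lay nearer to the controls than the other SP libraries (20.7 and 21.3). TACR1 had 15.74, 25.82 and 32.98 FPKM in control 1 to 3 and 78.47, 123.25 and 140.69 FPKM in SP 1 to 3. TACR1 was thus higher with SP (log2 fold change 2.17, SE 0.28, adjusted p = 0.00207 by limma), so the groups were not matched in receptor transcript. The part of this difference in the results below was not tested. Reads of the vector and of the cells' own TACR1 cannot be told apart in these values. Of 12 proximal tubule markers 4 reached the filter, with sums of 144 to 170 FPKM in the controls and 164 to 179 FPKM with SP, most of it PAX8 and GGT1. CUBN, SLC34A1 and HNF4A, which mark differentiated proximal tubule, were at most 0.12 FPKM. The epithelial markers were at 1091 to 1155 FPKM in the controls and 1125 to 1192 FPKM with SP, though CDH1 was at most 0.07 FPKM. Leukocyte markers summed to 113 to 117 FPKM in the controls and 108 to 115 FPKM with SP. Most of this was CD68, and PTPRC was at most 0.01 FPKM. Fibroblast markers summed to 23.4 to 29.8 and 15.7 to 18.0 FPKM, mostly LUM and COL1A1, with COL1A2 at most 0.01 FPKM. By limma LUM and COL1A1 were lower with SP (adjusted p = 0.0161 and 0.00727). The markers PODXL (podocyte) and KRT18 (epithelial) were higher with SP (adjusted p = 0.00359 and 0.0316 by limma). AQP1 (proximal tubule) had 0.27, 0.32 and 0.41 FPKM in control 1 to 3 and 0.63, 0.63 and 0.87 FPKM in SP 1 to 3. AQP1 passed the filter only through the SP libraries, so its test is not used here. Podocyte markers summed to 1.41 to 1.73 FPKM in the controls and 3.02 to 4.39 FPKM with SP, nearly all of it PODXL. Endothelial markers summed to 0.05 to 0.07 FPKM in the controls and 0.33 to 0.67 FPKM with SP, and distal nephron markers to at most 0.06 FPKM. None of the endothelial or distal nephron markers passed the filter. The part of these markers in the results below was not tested.

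With SP, MAP2K3, MAP2K1 and MAPK13 rose and MAPK12 and MAP3K4 fell. MAP2K3, an activator of p38 kinases, changed most, from 28.2 ± 2.73 to 54.1 ± 5.14 FPKM (SD, n = 3 each), a ratio of 1.92. The other 32 kinase genes tested did not pass the test, among them all 4 MAP4K genes, MAPK3 of the ERK arm and both JNK genes that passed the filter (MAPK8 and MAPK9). The 3 higher genes were 8.11% of the members tested, against 8.57% of all genes tested that were called higher. The 2 lower genes were 5.41% of the members, against 12% of all genes. Calls over all genes split into 1039 higher and 1457 lower (41.6% higher), and this split became 58.2% higher with FPKM scaled to equal totals and 58.5% with median-ratio scaling. None of the members passed a 2-fold change by limma, and 0 did at an unadjusted p under 0.05. Of all genes 1.59% passed it in either direction. In bulk RNA, fewer cells carrying a transcript and less of it per cell cannot be told apart.

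The members were about evenly split by direction. Of the 37 tested, 18 had a positive and 19 a negative fold change, with a median log2 fold change of -0.01 beside -0.05 for all genes tested. The members' median was 0.04 with equal totals or median-ratio scaling. All SP libraries lay above all controls for 5 members (13.5%), beside 15.9% of all genes, and below them for 8 members (21.6%), beside 26.1%. The FPKM of all 42 members summed to 669 ± 10.3 in the controls and 674 ± 6.84 with SP. The plot of fold changes by gene sets the members out by tier.

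**Figure D1:**
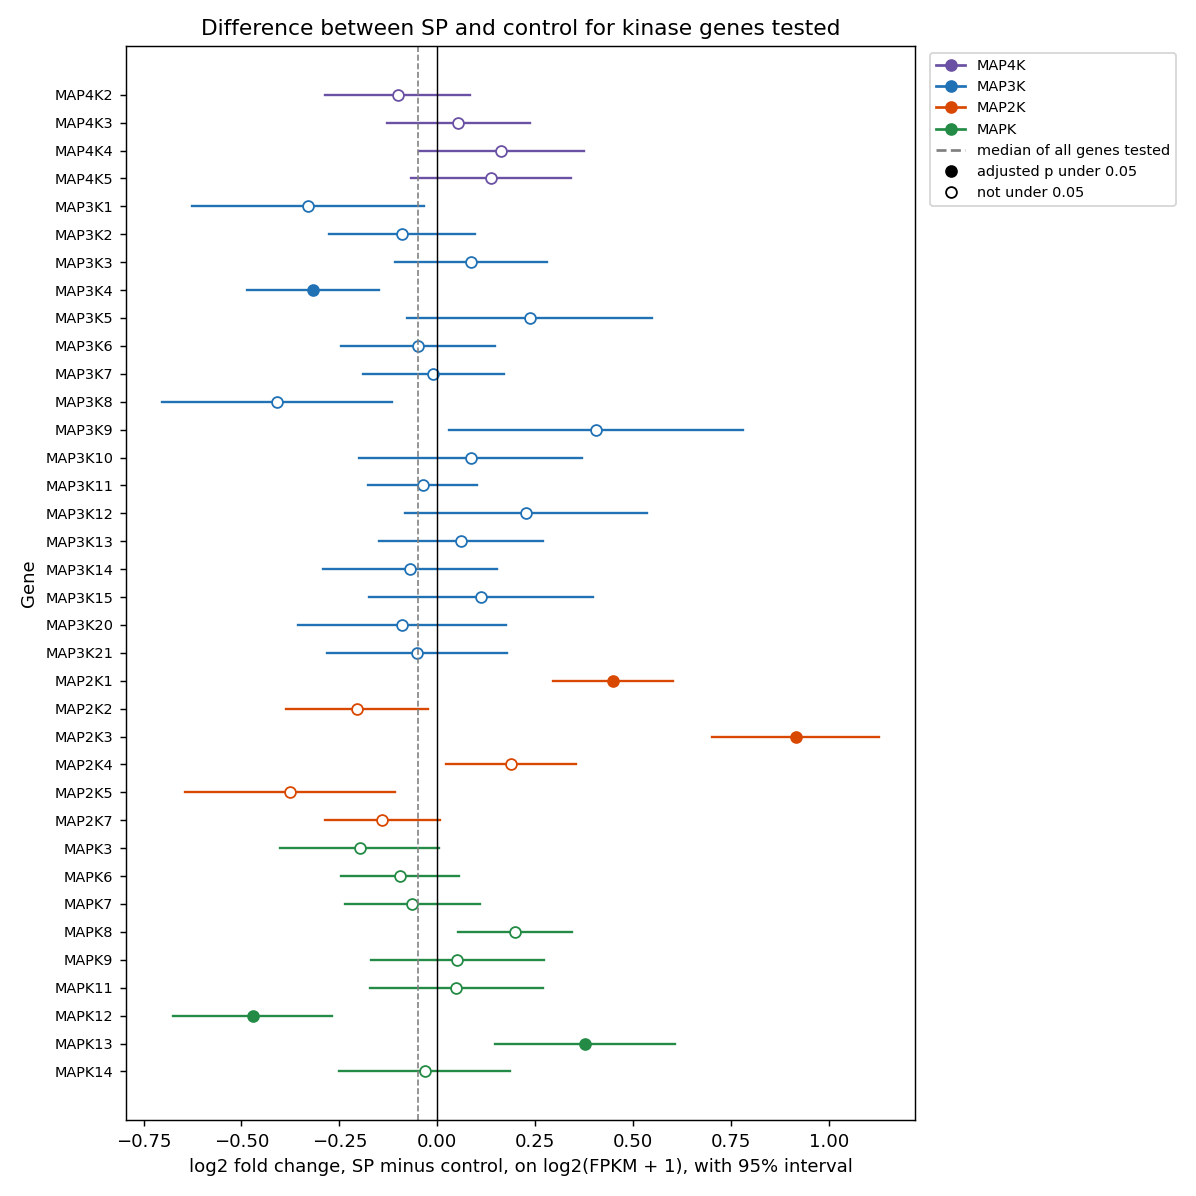
Difference between SP and control for the kinase genes tested and reported, as the log2 fold change of FPKM + 1 (horizontal axis) with its 95% interval (line), grouped by tier. Filled points had an adjusted p under 0.05, and the dashed line is the median of all genes tested (-0.05). MAP2K3 stands farthest to the right at 0.91 and MAPK12 farthest to the left at -0.47.

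The promoters of the 3 called genes with the largest fold changes are shown because their transcripts moved most. RefSeq gives a window of 250 bases before the start of 38 of the 42 members, in 53 windows on GRCh38.p14. Each sequence below is the longest stretch of the gene's first listed window that lies in no exon of the GENCODE 29 annotation, read 5′ to 3′ on the gene's strand. Capitals mark matches to the motifs named next.
MAP2K3 (chr17:21284461-21284671, plus strand, 211 bases): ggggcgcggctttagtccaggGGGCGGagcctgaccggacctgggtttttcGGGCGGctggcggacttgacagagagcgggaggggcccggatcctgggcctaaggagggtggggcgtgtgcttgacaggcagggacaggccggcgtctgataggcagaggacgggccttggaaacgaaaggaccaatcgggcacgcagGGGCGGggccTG
MAPK12 (chr22:50261826-50261933, minus strand, 108 bases): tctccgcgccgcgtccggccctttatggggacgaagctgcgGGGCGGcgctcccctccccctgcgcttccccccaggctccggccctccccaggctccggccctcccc
MAP2K1 (chr15:66386747-66386816, plus strand, 70 bases): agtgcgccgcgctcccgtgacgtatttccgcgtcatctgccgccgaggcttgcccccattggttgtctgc
The sequences hold 69.2%, 78.7% and 65.7% G and C bases, in that order. The MAP2K1 stretch is short because 180 bases of its window lie in exons of TIPIN, read the other way, at the upstream end and of MAP2K1 itself at the other. In the MAPK12 window 142 bases lie in exons of MAPK12, and in the MAP2K3 window 39 bases lie in exons of MAP2K3.

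Motifs were searched in the whole windows on both strands, by their letters, in the 53 windows and in the 14578 windows of all genes tested. The sets are not quite alike, as the 53 windows include those of MAPK10, MAP2K6, MAPK4 and MAP4K1, which are below the filter. The AP-1 motif TGANTCA, the site of FOS and JUN, which JNK and ERK act on, was in 3 of 53 windows of the members. It was in 4.46% of the windows of all genes tested. The windows were those of MAP2K3, at -41 from the RefSeq start (the last 2 capitals of the MAP2K3 sequence are its beginning), and of MAP3K8 and MAPK10. The GC box GGGCGG, the Sp1 motif, was in 35 of 53 windows (66.0%), against 64.3%, and each of the 3 windows above holds it at 3 or 4 places. For MAPK12 most and for MAP2K1 all of these places lie outside the printed stretch, in GENCODE exons. The E-box CACGTG was in 2 windows, of MAPK12 (at -90) and MAPK3, against 8.42%. The MAPK12 match is among the 142 bases of its window that lie in exons of MAPK12. The ETS motif CCGGAAG was in 3 windows against 14.3%, the CRE motif TGACGTCA in 2 windows against 2.47%, and the NF-kB motif (GGG, any 2 bases and TTTCC) in 0 windows against 1.93%. A match is a description of letters and not a bound site.

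At the top of the cascade, the MAP4K genes differed little between the groups. MAP4K5, MAP4K4 and MAP4K3 are STE20-like kinases that feed the JNK arm, as is MAP4K2. MAP4K5 had 20.43, 25.06 and 23.78 FPKM in the controls and 25.99, 26.62 and 23.69 FPKM with SP (log2 fold change 0.14, 95% interval -0.07 to 0.34). MAP4K4 had 14.90, 16.99 and 19.20 FPKM in the controls and 19.36, 19.02 and 18.92 FPKM with SP (log2 fold change 0.16, interval -0.05 to 0.37). The SP libraries of MAP4K4 lay close together, near the highest control. MAP4K3 had a log2 fold change of 0.05 (interval -0.13 to 0.24) around 9.85 ± 0.673 FPKM in the controls, and MAP4K2 one of -0.10 (interval -0.29 to 0.08) around 4.74 ± 0.197 FPKM. MAP4K1, which is known mainly from blood cells, was below the filter at 0 to 0.15 FPKM. In limma 0 of these 4 genes had an unadjusted p under 0.05, the interval of each took in 0, and none reached the size of the change in MAP2K3.

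The MAP3K tier held 17 genes, all of which passed the filter, and only MAP3K4 was called. MAP3K4 (MEKK4, a MAP3K that GADD45 proteins activate and that feeds p38 and JNK) lies on the plus strand of chromosome 6 at chr6:160991727-161117385 of GRCh38. It had 16.11, 17.60 and 18.56 FPKM in control 1 to 3 and 13.78, 13.91 and 13.59 FPKM in SP 1 to 3. All SP libraries were below all controls, and they spread far less than the controls did (SD 0.161 against 1.23). The fall was -0.32 on the log2 scale (SE 0.07), with an adjusted p of 0.0201 by limma. The call was lost with equal totals (adjusted p = 0.127) and without control 2 (0.0755), SP 2 (0.0758) or SP 3 (0.0578). MAP3K4 overlaps an antisense gene by 4.75% of its exonic bases, and how strand was handled is not stated, so reads of the pair may not be told apart.

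The MAP3K genes of highest level besides MAP3K4 were flat. MAP3K14 (NIK, which acts in the noncanonical NF-kB route) had 20.20, 24.82 and 24.47 FPKM in the controls and 19.98, 22.91 and 23.07 FPKM with SP, a log2 fold change of -0.07 (95% interval -0.29 to 0.16). MAP3K11 (MLK3, which feeds JNK) had 21.13, 20.92 and 20.60 FPKM in the controls and 19.99, 20.85 and 20.13 FPKM with SP, a log2 fold change of -0.04 (interval -0.18 to 0.10). MAP3K7 (TAK1, the kinase that TGF-beta, IL-1 and TNF receptors engage) had 17.88, 19.51 and 21.45 FPKM in the controls and 19.62, 18.92 and 19.70 FPKM with SP, a log2 fold change of -0.01 (interval -0.19 to 0.17). The groups overlapped for each of these 3 genes, and their order by level did not hold from library to library. The signs for MAP3K11 and MAP3K7 turned positive with equal totals (0.02 and 0.05).

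The remaining 13 MAP3K genes ranged from 0.507 ± 0.0777 FPKM (MAP3K13) to 10.9 ± 0.712 FPKM (MAP3K5) in the controls. Their fold changes ran from -0.41 (MAP3K8) to 0.40 (MAP3K9) on the log2 scale. MAP3K8 (TPL2, the MAP3K that couples inflammatory receptors to ERK) had 6.93, 7.81 and 5.98 FPKM in the controls and 4.45, 6.01 and 4.45 FPKM with SP. The groups overlapped narrowly, as SP 2 (6.01) lay above control 3 (5.98). The adjusted p of MAP3K8 by limma was 0.0553, and 0.0183 with the replicate number as a block. It was also under 0.05 without control 3 (0.0360) or SP 2 (0.0432). MAP3K9 (MLK1, which feeds JNK) had 4.31, 5.70 and 7.59 FPKM in the controls and 7.09, 7.91 and 8.83 FPKM with SP. Its adjusted p was 0.115, 0.0309 with the block and 0.0221 without control 3, and in each same-numbered pair of libraries SP was the higher. These 2 genes were the members whose side of the threshold the block changed. MAP3K1 (MEKK1, a route into JNK) had 7.70, 8.43 and 10.24 FPKM in the controls and 8.04, 6.41 and 5.93 FPKM with SP (log2 fold change -0.33, adjusted p = 0.104). MAP3K5 (ASK1, which oxidative stress activates) had 10.35, 11.72 and 10.70 FPKM in the controls and 14.50, 15.00 and 10.12 FPKM with SP. SP 3 stood apart from the other SP libraries for MAP3K5, whose adjusted p was 0.245 with it and 0.0274 without it. MAP3K8, MAP3K9, MAP3K1 and MAP3K5 were singled out after their values were seen.

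The gene that changed most was in the MAP2K tier, whose 6 genes above the filter each had groups that did not overlap, 3 with SP above and 3 with SP below (15.9% and 26.1% over all genes tested). The plot of levels shows them beside the MAPK genes. MAP2K3 (MKK3) phosphorylates the p38 kinases and lies on the plus strand of chromosome 17 at chr17:21284672-21315240. It had 25.51, 30.97 and 28.16 FPKM in control 1 to 3 and 49.28, 59.50 and 53.43 FPKM in SP 1 to 3. The lowest SP library was above the highest control by more than the whole range of either group. The rise was 0.91 on the log2 scale (SE 0.09, 95% interval 0.70 to 1.13), with an adjusted p of 0.000859 by limma and of 0.000305 to 0.00674 over the 14 other settings tried. MAP2K6, the other dedicated p38 activator, was below the filter at 0.02 to 0.13 FPKM. MAP2K3 held at least 99.5% of the FPKM of this pair in each library.

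**Figure D2:**
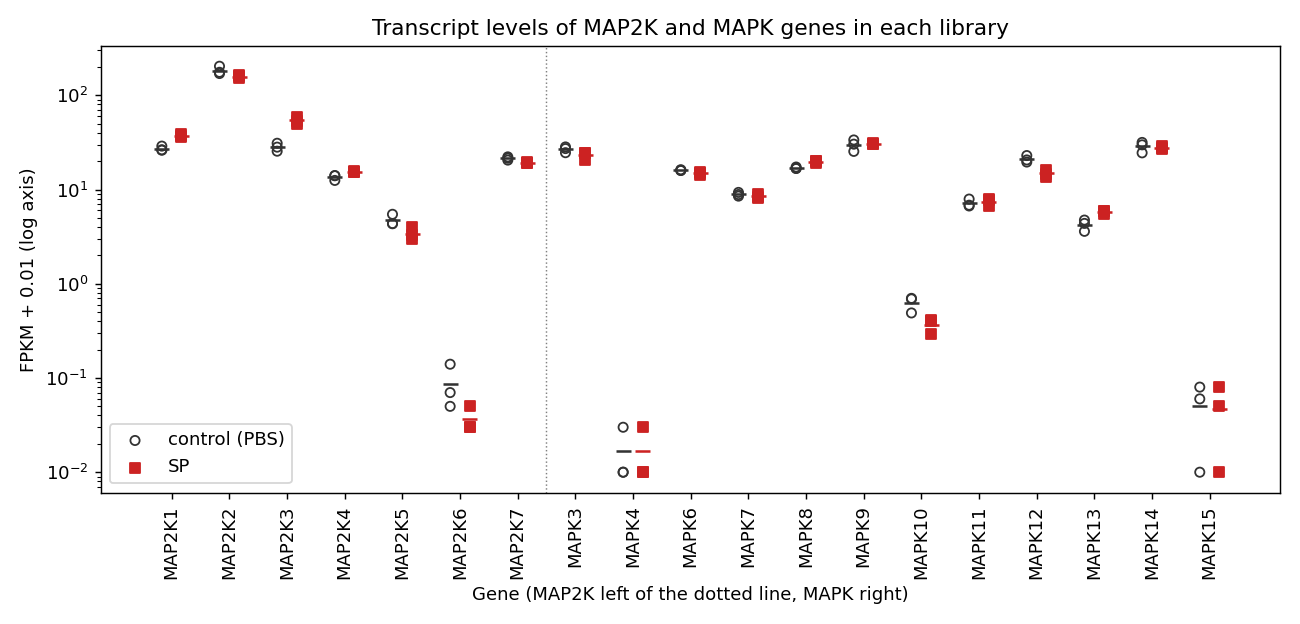
Transcript level of each MAP2K gene (left of the dotted line) and MAPK gene (right) reported, in each library, as FPKM + 0.01 on a log axis. Circles are the 3 control libraries, squares the 3 SP libraries and bars the group means. MAP2K3 and MAP2K1 squares lie above their circles and MAPK12 squares below, while MAP2K2 is the highest of these genes in all 6 libraries.

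MAP2K1 (MEK1) and MAP2K2 (MEK2) are the paired activators of ERK, and they lay on opposite sides. MAP2K1, on the plus strand at chr15:66386817-66492312, had 26.42, 26.12 and 28.89 FPKM in the controls and 37.25, 38.68 and 36.15 FPKM with SP. Each SP library was above each control. Its rise was 0.45 on the log2 scale (SE 0.07, adjusted p = 0.00394 by limma), and it stayed under 0.05 in all 14 other settings (highest 0.0273). MAP2K2 had 203.47, 175.50 and 170.24 FPKM in the controls and 160.78, 150.99 and 163.02 FPKM with SP, the highest level of any member. All SP libraries of MAP2K2 were below all controls, but its log2 fold change of -0.21 (95% interval -0.39 to -0.02) did not pass the test (adjusted p = 0.101). MAP2K1 made up 13% ± 1.51 of the summed MAP2K1 and MAP2K2 FPKM in the controls and 19.1% ± 1.15 with SP, and the sum itself was 210 ± 17.1 and 196 ± 5.19 FPKM. Of MAP2K1's exonic bases, 5.75% lie opposite SNAPC5 and 11.5% opposite an antisense gene. SNAPC5 itself had 8.50 ± 0.293 FPKM in the controls and 7.22 ± 0.514 FPKM with SP, the other direction from MAP2K1. The SNAPC5 difference was not called (log2 fold change -0.21, adjusted p = 0.0973 by limma). No level is given here for the antisense gene, and the part of these overlaps in the MAP2K1 values was not tested.

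The JNK activators also lay on opposite sides, by smaller amounts. MAP2K4 (MKK4, which can also act on p38) had 12.48, 14.06 and 14.00 FPKM in the controls and 15.50, 15.47 and 15.57 FPKM with SP. MAP2K7 (MKK7, specific to JNK) had 20.51, 21.48 and 22.20 FPKM in the controls and 19.70, 19.24 and 18.98 FPKM with SP. Neither passed the test, with log2 fold changes of 0.19 (adjusted p = 0.0992) for MAP2K4 and -0.14 (adjusted p = 0.151) for MAP2K7. Their sum was 34.9 ± 1.70 FPKM in the controls and 34.8 ± 0.339 FPKM with SP, while the share of MAP2K4 in it was 38.7% ± 0.866 and 44.6% ± 0.516. MAP2K5 (MEK5), which activates ERK5, had 5.45, 4.33 and 4.34 FPKM in the controls and 3.26, 2.98 and 3.96 FPKM with SP (log2 fold change -0.38, 95% interval -0.64 to -0.11, adjusted p = 0.0543). Without SP 3 its adjusted p was 0.0451, and with the filter of FPKM 1 in all libraries 0.0491. Over the 4 kinases that feed JNK or p38 (MAP2K3, MAP2K4, MAP2K6 and MAP2K7), MAP2K3 made up 44.6% ± 1.68 of the FPKM in the controls and 60.7% ± 2.41 with SP. The plot of shares shows the same change of make-up in each library.

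Among the MAPK genes, the calls fell in the p38 family, whose 4 genes did not move together. MAPK12 (p38 gamma, best known from muscle), on the minus strand at chr22:50245450-50261825, had 22.93, 20.60 and 19.56 FPKM in the controls and 13.63, 14.75 and 16.29 FPKM with SP. All SP libraries were below all controls. Its fall was -0.47 on the log2 scale (SE 0.09, adjusted p = 0.00955 by limma), and it stayed under 0.05 in all 14 other settings (highest 0.0458). MAPK13 (p38 delta, found mainly in epithelia and other secretory or barrier tissues), on the plus strand at chr6:36127809-36144524, had 3.59, 4.73 and 4.36 FPKM in the controls and 5.48, 5.86 and 5.94 FPKM with SP. Its rise was 0.38 on the log2 scale (SE 0.10, adjusted p = 0.0335). The MAPK13 call was lost with no filter on low values (adjusted p = 0.0651) and without control 1 (0.0615), SP 1 (0.0577), SP 2 (0.120) or SP 3 (0.0922).

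The more widely studied p38 genes did not pass. MAPK14 (p38 alpha, the main p38 of most tissues) had 24.49, 29.79 and 31.60 FPKM in the controls and 29.07, 27.49 and 26.91 FPKM with SP, a log2 fold change of -0.03 (95% interval -0.25 to 0.19). MAPK11 (p38 beta) had 7.91, 6.68 and 6.81 FPKM in the controls and 6.61, 7.78 and 7.85 FPKM with SP, a log2 fold change of 0.05 (interval -0.17 to 0.27). The groups overlapped for both. The family lies as neighbouring pairs, MAPK14 (chr6:36027677-36111236) beside MAPK13 on the plus strand of chromosome 6 and MAPK11 (chr22:50263713-50270767) beside MAPK12 on the minus strand of chromosome 22, and each pair held 1 called gene. Whether the paired genes differed from each other in their change was not tested. The 4 genes summed to 61.0 ± 1.84 FPKM in the controls and 55.9 ± 1.10 FPKM with SP. MAPK12 was 34.5% ± 3.91 of this sum in the controls and 26.6% ± 1.86 with SP, MAPK13 was 6.91% ± 0.784 and 10.3% ± 0.263, and MAPK14 was 46.8% ± 4.72 and 49.8% ± 2.97.

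MAPK12 overlaps a neighbouring gene. HDAC10, which encodes a deacetylase, overlaps MAPK12 on the same strand by 2763 exonic bases, which is 29.3% of the exonic bases of MAPK12. HDAC10 had 5.03, 4.65 and 5.03 FPKM in the controls and 3.71, 3.40 and 3.22 FPKM with SP, a log2 fold change of -0.41 (adjusted p = 0.0130 by limma). Both genes thus had lower values with SP, and how the shared reads were divided between them was not tested. Of the 31-base words in MAPK12 transcripts, 28.8% also occur in other genes, and 27.3% occur in HDAC10. This share was 6.95% for MAP2K1, 4.40% for MAP2K3, 4.08% for MAPK13 and 0.208% for MAP3K4. Among the members not called, MAPK6 (20.7%), MAP2K2 (11.8%) and MAP2K4 (11.7%) share the most, and the gene that shared most was a pseudogene for MAPK6 (MAPK6P3) and for MAP2K4 (MAP2K4P1). Members not called also overlap genes on the opposite strand. Among them are MAP3K12 (18.7% of its exonic bases), MAP3K15 (17.2%), MAP3K14 (12.3%) and MAP2K7 (8.51%). These checks of overlaps and shared words, and the choice of HDAC10 and SNAPC5, were made after the fold changes were seen.

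The JNK kinases did not pass the test, though MAPK8 came near it. MAPK8 (JNK1) had 16.72, 17.32 and 16.76 FPKM in the controls and 20.00, 19.87 and 18.89 FPKM with SP, so that all SP libraries were above all controls. Its log2 fold change was 0.20 (SE 0.06, 95% interval 0.05 to 0.34, adjusted p = 0.0586), and it was called in 2 of the 14 other settings, median-ratio scaling (0.0334) and quantile normalization (0.0471). MAPK9 (JNK2) had 25.38, 30.29 and 33.57 FPKM in the controls and 30.68, 31.02 and 30.29 FPKM with SP (log2 fold change 0.05, interval -0.17 to 0.27). MAPK10 (JNK3, the form of neurons and heart) was below the filter, with 0.69, 0.68 and 0.48 FPKM in the controls and 0.28, 0.40 and 0.39 FPKM with SP. Without a filter its adjusted p was 0.0589. MAPK9 was the higher of the main JNK genes in each library, with 62.7% ± 3.38 of the JNK sum in the controls and 60.6% ± 0.462 with SP.

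MAPK3 and the MAPK genes outside the main arms did not pass either. MAPK3 (ERK1) had 24.59, 28.30 and 27.19 FPKM in the controls and 20.61, 24.32 and 24.56 FPKM with SP, a log2 fold change of -0.20 (interval -0.40 to 0.0044, adjusted p = 0.143). MAPK3 had all SP libraries below all controls by a narrow margin. MAPK7 (ERK5) had 8.88 ± 0.407 FPKM in the controls and 8.45 ± 0.359 FPKM with SP (log2 fold change -0.06, interval -0.24 to 0.11). MAPK6 (ERK3, an atypical MAPK with no known MAP2K) had 16.0 ± 0.169 and 14.9 ± 0.615 FPKM, with all SP libraries below all controls (log2 fold change -0.10, interval -0.25 to 0.06). The other atypical genes, MAPK4 and MAPK15, were below the filter, at no more than 0.02 and 0.07 FPKM.

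By arm, the p38 genes together had 89.3 ± 4.33 FPKM in the controls and 110 ± 5.68 FPKM with SP, of which MAP2K3 was 28.2 and 54.1 FPKM. The JNK arm had 82.2 ± 5.79 and 85.4 ± 1.13 FPKM, and the ERK5 arm 13.6 ± 0.387 and 11.9 ± 0.246 FPKM. The median log2 fold change was 0.05 over the 5 p38 genes tested, 0.12 over 4 JNK genes and -0.22 over the 2 ERK5 genes. These sums and medians are descriptions with no test.

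The call of MAP2K3, MAP2K1 and MAPK12 held in each of the 14 settings, unlike that of MAP3K4 (10 settings) and MAPK13 (9 settings). The plot of adjusted p over settings shows the 5 called genes beside the 6 uncalled members that were under 0.05 in at least 1 setting, which were chosen after their values were seen.

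Genes next to the cascade were read from 5 lists of 74 genes, of which 67 were tested. Of these 5 were higher (7.46%), 10 were lower (14.9%) and 52 were not called, beside 8.57% and 12% of all genes tested. With the replicate block 5 were higher and 13 lower, with LAMTOR2 (adjusted p = 0.0483), LAMTOR3 (0.0471), GADD45A (0.0421) and GADD45B (0.0406) added to the lower genes and PAK1 lost. These 4 added genes fall outside the rule for naming genes and were singled out after their values were seen. ARAF, a MAP3K of the ERK arm outside the symbol pattern, had 42.9 ± 1.73 FPKM in the controls and 43.4 ± 0.978 FPKM with SP (log2 fold change 0.02). The TAO, STK and PAK kinases and their relatives had 0 higher and 3 lower (23.1%) of 13 tested, beside 8.57% and 12% of all genes. STK25 (a kinase at the Golgi) fell from 53.2 ± 1.57 to 41.3 ± 1.04 FPKM, STK26 from 12.4 ± 1.3 to 8.98 ± 0.385 FPKM and PAK1 (which RAC and CDC42 activate) from 12.7 ± 0.838 to 10.4 ± 0.133 FPKM. The PAK1 call was lost with the replicate block (adjusted p = 0.0512) and without control 2, control 3 or any SP library (0.0823 to 0.147), and also with no filter (0.0546), equal totals (0.223) and median-ratio scaling (0.0714). The STK26 call was lost without SP 2 (0.0662) and with equal totals (0.0690).

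The list of Ras and RAC GTPases and their regulators had 2 higher (11.1%) and 1 lower (5.56%) of 18 tested, beside 8.57% and 12% of all genes. RRAS2 (a Ras-like GTPase) fell from 33.2 ± 2.26 to 24.5 ± 1.47 FPKM, RAC2 rose from 145 ± 8.90 to 173 ± 8.68 FPKM and RASA2 (a GTPase-activating protein that turns Ras off) rose from 5.90 ± 0.346 to 7.63 ± 0.722 FPKM. The RAC2 call was lost without any 1 control, SP 2 or SP 3 (adjusted p of 0.0536 to 0.150), with no filter (0.0522) and with no variance trend (0.0586). The RASA2 call was lost without control 1, control 2, SP 2 or SP 3 (0.0841 to 0.160), with no filter (0.0681) and with equal totals (0.0575).

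The scaffolds and adaptors had 1 higher (4.76%) and 4 lower (19.0%) of 21 tested, beside 8.57% and 12% of all genes. GADD45G, which binds and activates MAP3K4, fell most of all the genes named here, from 12.63, 10.56 and 6.46 FPKM in the controls to 1.52, 1.95 and 2.85 FPKM with SP (log2 fold change -1.79, SE 0.23, adjusted p = 0.00213 by limma). CNKSR3 fell from 9.41 ± 1.52 to 5.68 ± 0.148 FPKM, and LAMTOR1 (of the late endosome scaffold) fell from 85.7 ± 7.34 to 67.7 ± 5.87 FPKM. The LAMTOR1 call was lost without control 1, control 2, SP 2 or SP 3 (adjusted p of 0.0671 to 0.122), with no filter (0.0563) and with median-ratio scaling (0.0593). SH3RF1 (POSH, a JNK scaffold) rose from 6.60 ± 0.295 to 9.22 ± 0.101 FPKM.

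The kinases that MAPK enzymes activate had 2 higher and 2 lower (18.2% each) of 11 tested, beside 8.57% and 12% of all genes. MAPKAPK2 (MK2), the main p38 alpha substrate kinase, had 89.46, 90.80 and 80.94 FPKM in the controls and 66.64, 67.88 and 67.98 FPKM with SP (log2 fold change -0.36, SE 0.06, adjusted p = 0.00773 by limma). RPS6KA5 (MSK1), which ERK and p38 activate, rose from 3.82 ± 0.738 to 6.55 ± 0.701 FPKM, and RPS6KA4 (MSK2), its near relative, fell from 18.4 ± 0.935 to 14.9 ± 1.14 FPKM. MKNK2, which phosphorylates the cap-binding factor EIF4E, rose from 87.1 ± 4.0 to 110 ± 6.5 FPKM. The RPS6KA4 call was lost without control 2, control 3, SP 2 or SP 3 (adjusted p of 0.0553 to 0.137), with no filter (0.0528), with equal totals (0.147) and with median-ratio scaling (0.0656). The MKNK2 call was lost without SP 2 (0.0599).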

How the data were processed

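RNA was sequenced as paired-end reads from 6 libraries of NK-1R-overexpressing HK-2 cells (3 control, 3 SP). Per the study's methods, the authors cleaned the reads, used HISAT for mapping to GRCh38.p13 and RSEM to quantify genes. The submitters' processing notes also name HISAT2, Bowtie2 and hg38, without versions. The deposited values are FPKM that the authors rounded to 2 decimals, for 16250 genes, with 1 value per library. The single-library tables hold the same values as the series table (0 differ). The depth is unknown, and FPKM is relative to each library's total. Strand handling in the counting is not given in the sources used.

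The study's own test for DEGs needs counts, which FPKM are not. Instead limma 3.58.1 (R 4.3.3), with a variance trend, was run on log2(FPKM + 1) of the 12127 genes that reached 0.5 FPKM in 3 or more libraries. P-values were adjusted by Benjamini-Hochberg over all of these genes. The fit was tested on simulated data. Intervals are at 95%, and ± is the SD over 3 libraries. The alternatives were a pseudocount of 0.1, no filter, a filter of FPKM 1 in all 6 libraries, leaving out each library, a replicate block, no trend and 3 other scalings between libraries, and for the counts of calls an adjusted p under 0.01 or a 1.5-fold threshold. Deviations from the group means correlated with 0.165, 0.223 and 0.170 between same-numbered libraries. Between other numbers the values were -0.148 to -0.0363, which in part follows from taking deviations from group means. The numbers may thus pair the libraries, so a replicate block was run as an alternative. The main fit, which gave the calls, intervals and p-values printed without a named setting, had no block. With the block 4 members were higher and 3 lower, beside 3 and 2 in the main fit. A pairing would rest on measured values alone, such as these correlations and TACR1, whose level rose with the number in both groups. No source used here gives the meaning of a number.

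The members, the lists of other genes and the tests were chosen with earlier results of these data known. The genes named are all called members, all MAP4K, MAP2K and MAPK genes above the filter, the 4 MAP3K genes of highest mean FPKM, members below the filter by name, and up to 4 called genes (or 2 of the highest level) in each other list. GENCODE 29 (GRCh38) gave the gene positions, and promoter windows are from RefSeq on GRCh38.p14. MAPK15, MAP3K1 and MAP3K15 had no window matched. Protein sequences were not used here. Some genes that the rule takes are not reported here.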

Additional observations from a re-analysis of the deposited data

How the results depend on the processing

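The counts of called kinase genes stayed within 1.5 times of 3 higher and 2 lower, except that 5 were higher with median-ratio scaling, which added MAPK8 and MAP2K4, and 1 was lower with equal totals, at an adjusted p under 0.01 or without control 2. With each library left out, 2 to 4 were higher and 1 to 3 lower. None passed 2-fold in any setting, with leave-one-out counts of 0, and 1 passed a 1.5-fold threshold. The other genes of the pathway called higher numbered 3 with no filter and 2 at an adjusted p under 0.01, with 2 to 6 when a library was left out. Those called lower numbered 6 with no filter, equal totals or median-ratio scaling and 5 at an adjusted p under 0.01, with 5 to 9 when a library was left out. The members' median log2 fold change was -0.0326 with the filter of FPKM 1 in all libraries, 0.0383 with equal totals, 0.0394 with median-ratio scaling and 0.00507 with quantile normalization, and ran from -0.0123 to 0.0162 with a library left out.

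Signs turned only for genes that were not called. With equal totals the log2 fold changes were 0.0223 (MAP3K11), 0.0488 (MAP3K7), 0.0278 (MAPK14) and 0.00349 (MAP3K6). With median-ratio scaling they were 0.0126 (MAP3K11), 0.0394 (MAP3K7) and 0.0183 (MAPK14), and with quantile normalization 0.00507 (MAP3K7) and 0.00495 (MAPK14). Leave-one-out fold changes ran from -0.0722 to 0.0527 (MAP3K7), -0.137 to 0.0403 (MAPK14), -0.0549 to 0.14 (MAPK9), -0.0184 to 0.159 (MAP3K10), -0.21 to 0.0156 (MAP3K20), -0.106 to 0.0214 (MAP3K21), -0.0961 to 0.00856 (MAP3K6) and -0.0161 to 0.0352 (ARAF). The fit with the replicate block (MAP3K8 and MAP3K9 newly called, at adjusted p of 0.0183 and 0.0309, and PAK1 lost, at 0.0512) changed no other call of a gene named under the rule, and among the other genes of the pathway added 4 lower calls, for 13 in all. The causes of these moves were not tested. Over all genes, calls numbered 474 higher and 426 lower without SP 2 and 589 higher and 601 lower without control 2. Precision is limited by 3 libraries a group and unknown depth.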
